A study of Homo sapiens with 18 samples.

Results

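The death receptors and their signalling partners are described here as a set of 10 genes, chosen by name: *FAS*, *TNFRSF10A*, *TNFRSF10B*, *TNFRSF10C*, *TNFRSF10D*, *TNFRSF1A*, *TNFRSF1B*, the ligand gene *TNFSF10*, the adaptor gene *FADD* and the initiator caspase gene *CASP8*. Earlier results of these data were known when the set was chosen. Of the 10, 8 had a row in the deposited tables, which list 26702 genes in all. *TNFRSF10A* and *TNFSF10*, which encode the TRAIL receptor DR4 and its ligand TRAIL, were not analysed here. Hence the set as measured consists of receptors, an adaptor and a caspase, and no ligand.

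Death receptors are cell surface proteins of the TNF receptor superfamily that carry a death domain in their cytoplasmic tail. When FAS or the TRAIL receptors are bound by ligand, they recruit FADD, which in turn brings CASP8 molecules together so that they activate each other and start the caspase cascade of the extrinsic apoptosis pathway. *FAS* and *TNFRSF10B*, the gene of the TRAIL receptor DR5, are well known as direct targets of the transcription factor p53.

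The cells were U2OS, a human osteosarcoma line with functional p53. They were transfected with a control siRNA (siControl) or with an siRNA against *ANKRA2* or *RFXANK*, which encode related ankyrin repeat proteins, and then kept for 24 h in 10 µM Nutlin-3a or in its solvent DMSO. Nutlin-3a blocks the binding of MDM2 to p53 and thereby raises p53. Polyadenylated RNA of 18 samples was sequenced, 3 for each of the 6 groups. Every sample of siControl, siANKRA2 and siRFXANK cells thus shares the line, the transfection and the solvent, and no untransfected cells were analysed. The labels do not say whether samples of a group came from separate cultures, so that p-values measure the spread between these samples, which may be technical. The siRFXANK samples carry labels of another form (genotype wild-type, tissue bone, cell type epithelial cells) and no siControl samples labelled alike, so that siRFXANK and a batch difference cannot be told apart in any comparison of siRFXANK with siControl. A single siRNA per gene is named in the labels.

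The data are 6 tables of DESeq2 comparisons without values per library, so library depth is unknown and an overlap between groups cannot be read sample by sample. In its place, group means in normalized counts were recovered from the log2 fold changes and their standard errors, together with the SD between libraries that the authors' model implies (modelled SD). A gene was called where its Benjamini-Hochberg adjusted p over all tested genes was under 0.05. The knockdown tables were read as knockdown over siControl, and *ANKRA2* was then lower in siANKRA2 cells, with log2 fold changes of -1.81 ± 0.18 (SE) in DMSO and -2.58 ± 0.12 in Nutlin-3a, and *RFXANK* in siRFXANK cells, with -2.96 ± 0.10 and -3.16 ± 0.10. This reading uses the targets themselves, and their direction is therefore no result. Each target was also called in the cells with the other siRNA. *ANKRA2* was higher in siRFXANK cells, by 0.73 ± 0.11 in DMSO and 0.46 ± 0.06 in Nutlin-3a. *RFXANK* was lower in siANKRA2 cells, at -0.37 ± 0.07 in DMSO and -0.44 ± 0.07 in Nutlin-3a. In siControl cells the p53 targets *MDM2* and *CDKN1A* rose with Nutlin-3a by 3.38 ± 0.05 and 3.27 ± 0.04 on the log2 scale. All 7 mesenchymal markers examined were listed, with deposited means from 33.2 (*COL1A2*) to 64042 (*COL1A1*) normalized counts, and summed to 167255. The 7 epithelial markers summed to 963, and ranged from *CLDN7* at 0.752 to *CLDN4* at 599, with *EPCAM* at 161. *CLDN4* lay above the mesenchymal markers *RUNX2* (454) and *COL1A2*. Of 5 blood cell markers 2 were listed, at 2.59 and 3.81, and the 3 endothelial markers lay between 1.33 and 31.2. A deposited mean may not describe these samples, since that of *ANKRA2* was 31568 while its recovered group means lay between 27.7 and 516. The marker values are therefore no safe measure of levels in the 6 groups.

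Among the measured members, transcripts of *TNFRSF1A*, the gene of TNF receptor 1, were the most abundant per length in every group. Its recovered level was 1168 normalized counts per kilobase of exon in siControl cells in DMSO and 1774 in Nutlin-3a. The length is that of all annotated exons of a gene together, and it can exceed the longest transcript. It was 7.24 kilobases for *CASP8* and 4.25 for *FAS*, whose longest transcripts have 2930 and 2563 bases. The order of such genes can change with the length used, and no order by another length was computed. By the length of all exons, *FADD* came next in DMSO at 624, followed by *TNFRSF10B* at 486, *FAS* at 163 and *CASP8* at 128. *TNFRSF10C*, which encodes a decoy receptor for TRAIL without a cytoplasmic tail, stood at 22.9, *TNFRSF1B* (TNF receptor 2, which has no death domain) at 1.24 and the other decoy receptor gene, *TNFRSF10D*, at 0.106. In Nutlin-3a the order among the abundant genes was different, with *TNFRSF10B* at 1256 and *FAS* at 714 normalized counts per kilobase both above *FADD* at 583. Within a group, neighbours in this order differed by more than their modelled SD except *TNFRSF10D* and *TNFRSF1B* in siControl cells in Nutlin-3a and in siRFXANK cells in DMSO. With the means scaled to the deposited mean of each gene, however, *FAS* (691 per kilobase) and *FADD* (671) in siControl cells in Nutlin-3a did not differ by more than it, nor did *TNFRSF10D* and *TNFRSF1B* in any group other than siControl in DMSO, and in siANKRA2 cells in DMSO *FADD* (668) stood above *TNFRSF10B* (614) and not below it (579 and 648).

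**Figure D1:**
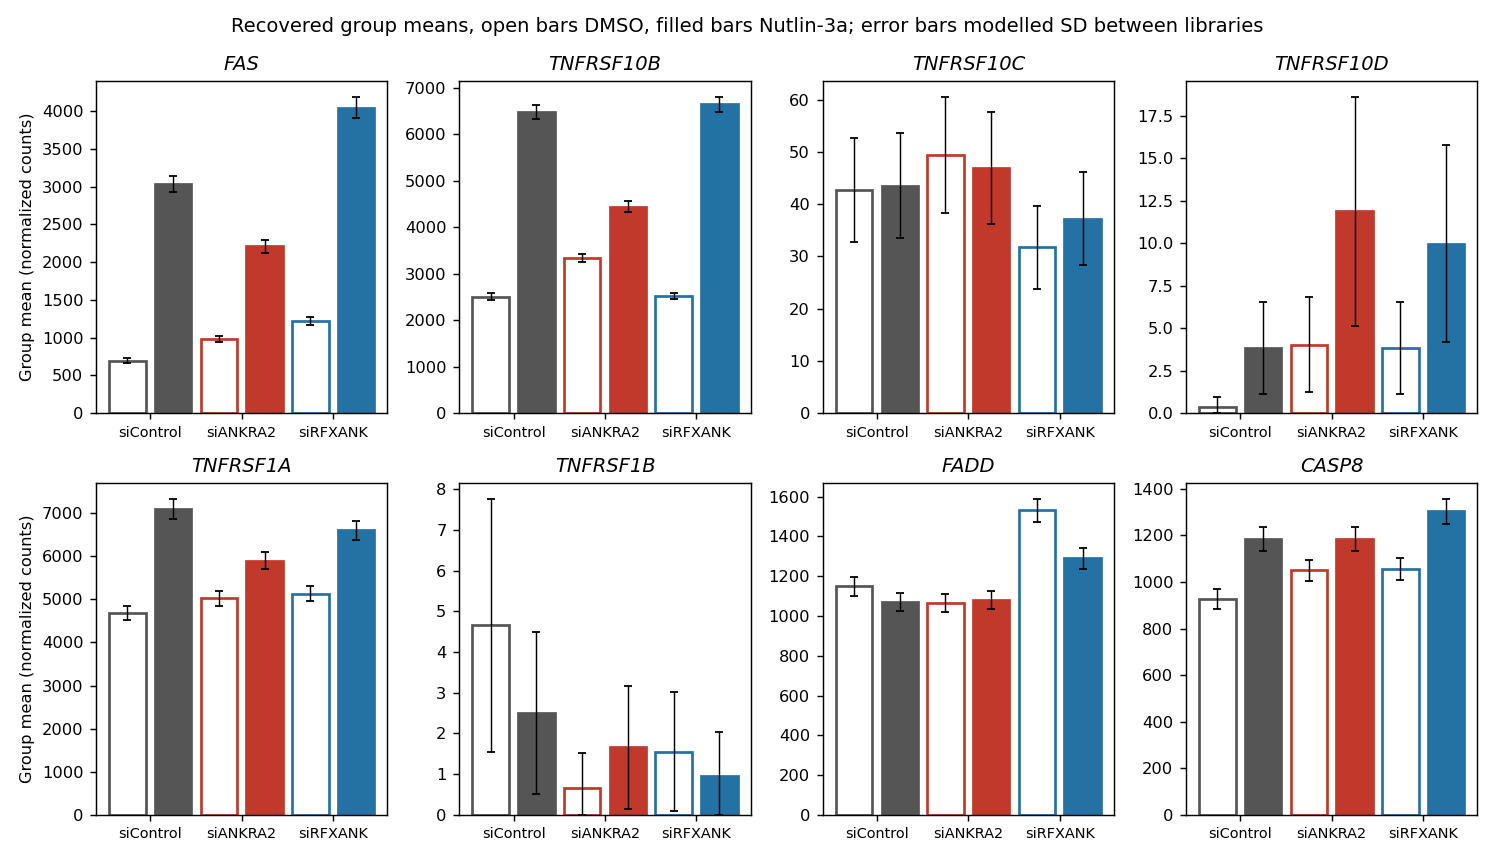
Recovered group means of the 8 measured members in normalized counts (vertical axes, each from 0) in the 6 groups; open bars are DMSO, filled bars Nutlin-3a, and error bars the modelled SD between libraries. The Nutlin-3a bars of *FAS* and *TNFRSF10B* are lowest in siANKRA2 cells, at 2208 and 4441, whereas *TNFRSF10D* and *TNFRSF1B* stay under 12 in every group.

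The first member, *FAS*, covers positions 88990582 to 89015785 of chromosome 10 (GRCh38, plus strand), and *CASP8* positions 201233443 to 201287711 of chromosome 2 (plus strand). In the RefSeq promoter windows of GRCh38, which reach from 250 bases before to 50 bases after a start site, the p53 half-site consensus was searched on both strands. This consensus is its own reverse complement. It was found in 2 of the 9 windows of the 5 measured members with a window, and in 6.63% of all 35116 windows. Both matches are shown with 10 bases on each side, since these genes rose with Nutlin-3a. Capitals mark the match.
*FAS*, chr10:88991299-88991328, plus strand: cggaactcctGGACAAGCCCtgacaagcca
*CASP8*, chr2:201257904-201257933, plus strand: ctttccaataAAGCATGTCCagcgctcggg
The matches end 113 bases (*FAS*) and 112 bases (*CASP8*) before the annotated starts at 88991431 and 201258035. In the GENCODE 29 annotation the *CASP8* stretch is intronic in all 8 *CASP8* transcripts that span it. The *FAS* stretch is intronic in 11 of 13 *FAS* transcripts that span it and exonic in the other 2, which are noncoding, and it also lies in an untranslated exon stretch of the transcript ACTA2-202 on the opposite strand. A match of letters is a description of the window, and binding was not measured here. The measured members without a window were not searched. No stretch of *TNFRSF10B* is given here, which does not mean that it has no site.

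Nutlin-3a raised 4 abundant members in siControl cells, with *FAS* in front. The group mean of *FAS* was 692 normalized counts in DMSO and 3038 in Nutlin-3a, a log2 fold change of 2.13 ± 0.051 (SE, 3 samples per group), or 4.39-fold. Its DESeq2 adjusted p is listed as 0, with a Wald value of 42.1. The mean of *TNFRSF10B* was 2505 in DMSO and 6478 in Nutlin-3a, which is a log2 fold change of 1.37 ± 0.031 (2.59-fold, adjusted p listed as 0, Wald value 44.0). *TNFRSF1A* went from 4679 to 7104 normalized counts, a log2 fold change of 0.60 ± 0.040 (adjusted p = 6.5e-50). *CASP8* rose the least of the 4, from 927 to 1185, with a log2 fold change of 0.35 ± 0.052 (adjusted p = 8.2e-11). In each of these genes the difference between the means exceeded the modelled SD of either group. As the samples are bulk RNA, more cells with a transcript and more transcript per cell cannot be told apart. In all, 5 of the 8 members were called higher in this comparison and 0 lower by DESeq2 (1, *FADD*, was lower at an unadjusted p under 0.05), beside 21.9% of all tested genes called higher and 21.2% called lower. The fifth is *TNFRSF10D*, whose counts are too few for a fold change, as given further on. With that gene at its bound, the median log2 fold change of the 8 members was 0.36, and the median over all tested genes was 0.02.

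In siANKRA2 cells the same 4 genes were called, with smaller values. *FAS* had a mean of 982 normalized counts in DMSO and 2208 in Nutlin-3a, and its log2 fold change was 1.17 ± 0.049 (adjusted p = 1.9e-122). For *TNFRSF10B* the means were 3341 and 4441, and the log2 fold change was 0.41 ± 0.031 (adjusted p = 5.1e-38). *TNFRSF1A* rose from 5023 to 5903, by 0.23 ± 0.040 on the log2 scale (adjusted p = 7.1e-08), and *CASP8* from 1050 to 1187, by 0.18 ± 0.052 (adjusted p = 0.0031). These are 4 of 8 members called higher and 0 lower by DESeq2 (0 lower at an unadjusted p under 0.05), where 15.5% of all tested genes were higher and 17.0% lower.

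In siRFXANK cells no table compares Nutlin-3a with DMSO directly. The response was derived from the tables of siRFXANK over siControl and of Nutlin-3a in siControl cells. The siControl samples cancel in it if these tables are of the same fit, which was not tested. Its standard errors and p-values rest on this as well. *FAS* rose from 1216 to 4050 normalized counts, a log2 fold change of 1.74 ± 0.046, and *TNFRSF10B* from 2516 to 6641, a log2 fold change of 1.40 ± 0.031, both with an adjusted p computed as 0 (Wald values 38.0 and 45.0). *TNFRSF1A* went from 5128 to 6609 (log2 fold change 0.37 ± 0.040, adjusted p = 5.3e-19) and *CASP8* from 1057 to 1304 (0.30 ± 0.051, adjusted p = 1.3e-08). *FADD* fell from 1531 to 1291 normalized counts, a log2 fold change of -0.25 ± 0.047 (adjusted p = 7.7e-07). Thus 4 of 8 members were called higher and 1 lower, against 22.8% and 22.5% of all tested genes.

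**Figure D2:**
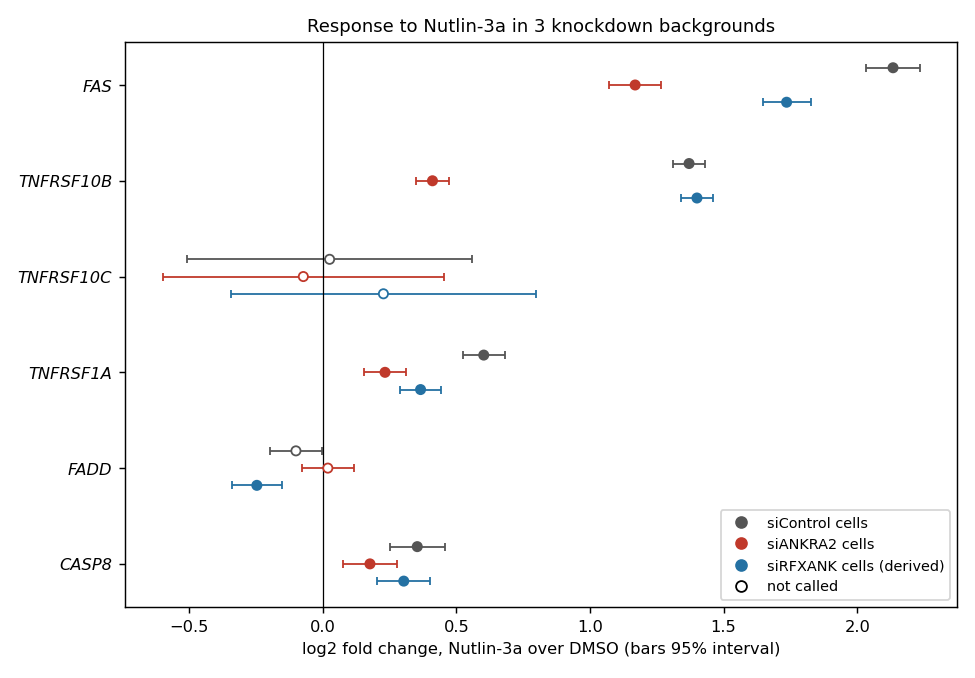
Response to Nutlin-3a of the 6 members with a mean above the floor in every group (vertical axis) as log2 fold change over DMSO (horizontal axis) in siControl, siANKRA2 and siRFXANK cells; bars are 95% intervals, and open circles mark values that were not called. The siANKRA2 values of *FAS* (1.17) and *TNFRSF10B* (0.41) lie apart from the siControl values of 2.13 and 1.37.

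The design asks whether the knockdowns change the response to p53 activation, which is the difference between these responses. For siANKRA2 minus siControl cells, *FAS* and *TNFRSF10B* differed by nearly the same amount. The difference of *FAS* was -0.96 ± 0.071 on the log2 scale (95% interval -1.10 to -0.83, adjusted p = 3.8e-40), and that of *TNFRSF10B* was -0.96 ± 0.044 (-1.05 to -0.87, adjusted p = 2.7e-102). In both genes the fold change in siANKRA2 cells was about 0.51 times that in siControl cells. *TNFRSF1A* had a difference of -0.37 ± 0.057 (adjusted p = 1.8e-09). *CASP8* had a difference of -0.18 ± 0.074 and missed the threshold (adjusted p = 0.064), with a 95% interval from -0.32 to -0.03. The difference of *FADD* was 0.12 ± 0.070, with an interval from -0.02 to 0.26. Of the 8 members, 0 were called higher and 3 lower by the Wald test of the difference (0 higher at an unadjusted p under 0.05), while 11.4% of all tested genes were called higher and 12.5% lower.

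For siRFXANK minus siControl cells the pattern of the receptors was not alike. *FAS* responded less, by -0.40 ± 0.068 (adjusted p = 2.0e-07), and so did *TNFRSF1A*, by -0.24 ± 0.057 (adjusted p = 0.00037). For *TNFRSF10B* the difference was 0.03 ± 0.044, with a 95% interval from -0.06 to 0.12 (adjusted p = 0.73). *CASP8* stood at -0.05 ± 0.073 (interval -0.19 to 0.09), and *FADD* at -0.15 ± 0.068 (adjusted p = 0.12). The count was 0 of 8 members higher and 2 lower by the same test (0 higher at an unadjusted p under 0.05), beside 11.6% and 9.64% of all tested genes. A difference between batches that is the same in DMSO and in Nutlin-3a cancels in these values.

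The responses of siANKRA2 and siRFXANK cells were also set against each other directly, in a comparison chosen after seeing the data. The siControl means cancel in it if all tables are of the same fit. *TNFRSF10B* differed by -0.99 ± 0.044 (siANKRA2 minus siRFXANK, adjusted p = 2.4e-108) and *FAS* by -0.57 ± 0.067 (adjusted p = 1.3e-15). *FADD* differed in the other direction, by 0.27 ± 0.069 (adjusted p = 0.00068), since it fell in siRFXANK cells and had a response of 0.02 ± 0.050 in siANKRA2 cells. *TNFRSF1A* was at -0.13 ± 0.057 and not called (adjusted p = 0.058), as was *CASP8* at -0.13 ± 0.073 (adjusted p = 0.19). Here 1 of 8 members was called higher and 2 lower, and 14.7% and 17.7% of all tested genes.

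Each response has a DMSO and a Nutlin-3a level, and siANKRA2 moved 3 of the 6 measured receptor genes, *FAS*, *TNFRSF10B* and *TNFRSF1A*, up in DMSO and down in Nutlin-3a. In DMSO, siANKRA2 cells held more *FAS* than siControl cells (982 against 692 normalized counts, log2 fold change 0.50 ± 0.056, adjusted p = 6.9e-19). *TNFRSF10B* was also higher (3341 against 2505, 0.42 ± 0.033, adjusted p = 1.7e-35). The rises of *CASP8* (0.18 ± 0.053, adjusted p = 0.0021) and *TNFRSF1A* (0.10 ± 0.041, adjusted p = 0.026) were smaller. *FADD*, the adaptor, stood at -0.11 ± 0.050 and missed the threshold (adjusted p = 0.058). In this comparison 5 of 8 members were called higher and 1 lower, where 24.3% and 24.5% of all tested genes were, and the calls of *TNFRSF10D* and *TNFRSF1B* among them rest on means near or under the floor.

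In Nutlin-3a these 3 receptor genes were lower after siANKRA2, while the other 3 were not called. *TNFRSF10B* stood at 4441 normalized counts in siANKRA2 and 6478 in siControl cells, a log2 fold change of -0.54 ± 0.029 (adjusted p = 1.2e-75). *FAS* stood at 2208 against 3038, a log2 fold change of -0.46 ± 0.044 (adjusted p = 5.5e-25), and *TNFRSF1A* at 5903 against 7104, a log2 fold change of -0.27 ± 0.040 (adjusted p = 8.0e-11). *CASP8* and *FADD* differed by 0.002 ± 0.051 and 0.01 ± 0.050, with 95% intervals from -0.10 to 0.10 and from -0.09 to 0.11. Therefore 0 of 8 members were called higher by DESeq2 (1, *TNFRSF10D*, at an unadjusted p under 0.05) and 3 lower, beside 24.6% and 25.5% of all tested genes. The DMSO and the Nutlin-3a comparison share no samples, but each shares its groups with the Nutlin-3a responses, and the difference of responses given above is the difference of these values.

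After siRFXANK, *FAS* was higher than in siControl cells in both treatments. Its log2 fold change was 0.81 ± 0.054 in DMSO (adjusted p = 1.2e-49) and 0.41 ± 0.042 in Nutlin-3a (adjusted p = 6.2e-22). *FADD* was higher by 0.41 ± 0.048 in DMSO (1531 against 1150 normalized counts, adjusted p = 4.4e-17) and by 0.27 ± 0.049 in Nutlin-3a (1291 against 1072, adjusted p = 2.8e-07). *CASP8* was higher by 0.19 ± 0.053 and 0.14 ± 0.050 (adjusted p = 0.0013 and 0.017). *TNFRSF1A* was higher in DMSO (0.13 ± 0.040, adjusted p = 0.0034) and lower in Nutlin-3a (-0.10 ± 0.039, adjusted p = 0.023). *TNFRSF10B* gave 0.01 ± 0.034 in DMSO and 0.04 ± 0.028 in Nutlin-3a, with 95% intervals from -0.06 to 0.07 and from -0.02 to 0.09, neither called. In DMSO 5 of 8 members, *TNFRSF10D* among them, were called higher and 0 lower by DESeq2 (0 lower at an unadjusted p under 0.05), beside 20.9% and 21.2% of all tested genes. In Nutlin-3a 3 were higher and 1 lower, beside 19.8% and 19.6%. Since no siControl samples are labelled alike, these levels carry any batch difference with them.

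**Figure D3:**
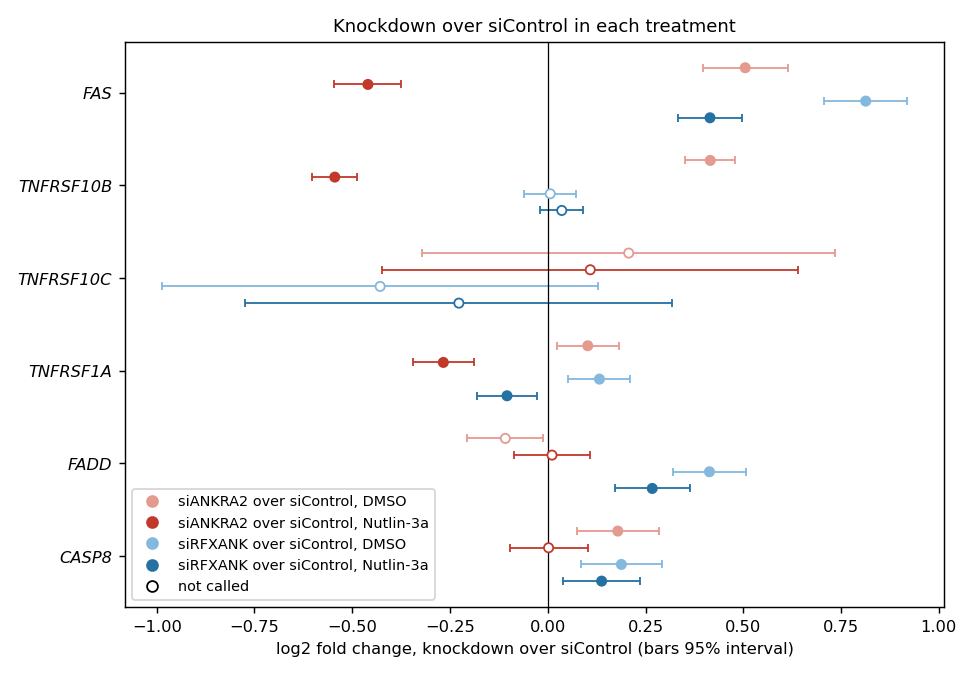
Knockdown over siControl (log2 fold change, horizontal axis) for the same 6 members in DMSO and in Nutlin-3a; bars are 95% intervals, and open circles mark values that were not called. For siANKRA2, *FAS*, *TNFRSF10B* and *TNFRSF1A* lie above 0 in DMSO and below 0 in Nutlin-3a, and *TNFRSF10B* stays within 0.04 of 0 for siRFXANK.

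The remaining receptors were measured at low levels. *TNFRSF10C* had means from 31.8 (siRFXANK in DMSO) to 49.4 normalized counts (siANKRA2 in DMSO), with a modelled SD of 25.0% and 22.6% of these means. It was called in none of the 10 comparisons. Its log2 fold change with Nutlin-3a was 0.03 ± 0.27 in siControl cells, with a 95% interval from -0.51 to 0.56. Of its longest transcript 42.6% occurs in stretches of 31 bases that other transcripts share, among them those of *TNFRSF10D* and of 2 overlapping genes, so that its counts are uncertain. The 3 measured TRAIL receptor genes are neighbours on chromosome 8, *TNFRSF10B* at 23020133 to 23069179 (minus strand), *TNFRSF10C* at 23102590 to 23117437 (plus strand) and *TNFRSF10D* at 23135588 to 23164030 (minus strand). *TNFRSF10B* overlaps *RHOBTB2*, *FAS* overlaps *ACTA2* and *FADD* overlaps *AP000879.1*, each on the opposite strand. Whether the counting used strand is not given in the sources used here.

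For *TNFRSF10D*, the recovered mean was 0.374 normalized counts in siControl cells in DMSO, under the floor of 3, and 3.84 in Nutlin-3a. The means in siANKRA2 cells were 4.04 in DMSO and 11.9 in Nutlin-3a. In siRFXANK cells they were 3.83 and 9.99. The gene was called higher in the 3 comparisons with siControl cells in DMSO, among them Nutlin-3a over DMSO (deposited log2 fold change 3.36 ± 1.38, adjusted p = 0.035). Against the floor, these bounds were at least 1.28-fold higher with Nutlin-3a, at least 1.34-fold higher with siANKRA2 and at least 1.27-fold higher with siRFXANK. With the means scaled to the deposited mean of the gene (2.75 normalized counts), both groups of each of these comparisons were at or under the floor, and no fold is given. *TNFRSF1B* had its highest mean, 4.66 normalized counts, in siControl cells in DMSO, and 0.656 to 2.51 in the other groups. It was called lower with siANKRA2 in DMSO (adjusted p = 0.046), at least 1.55-fold lower against the floor, or at least 2.71-fold with the means scaled to its deposited mean of 3.49.

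The other genes of the extrinsic pathway were taken from a list of 35 receptors, adaptors, caspases, inhibitors and ligands, of which 32 were tested. The genes named from it are among those with the largest called changes of genes with a deposited mean of at least 100. Some genes under this limit changed more. *CASP10* (deposited mean 94.1) rose by 2.51 ± 0.22 with Nutlin-3a in siControl cells. The ligand gene *TNF* (13.7) was called higher with siANKRA2 in DMSO (DESeq2 adjusted p = 1.2e-19) and in Nutlin-3a (3.9e-10). With Nutlin-3a in siControl cells 13 were called higher and 6 lower, with a median log2 fold change of 0.12. *PIDD1*, which encodes a death domain protein of the PIDDosome, rose by 1.51 ± 0.089 and *TRADD*, the adaptor of TNF receptor 1, by 1.06 ± 0.085. *TRAF2*, an adaptor that carries survival signals from TNF receptors, fell by 0.44 on the log2 scale (SE 0.068), and *FAF1*, a FAS-associated factor, fell by 0.39 (SE 0.039). In siANKRA2 cells 9 were higher and 9 lower (median -0.03), led by *PIDD1* (1.07 ± 0.097) and *CRADD*, its adaptor partner (0.39 ± 0.084), in one direction, and by the decoy receptor gene *TNFRSF11B* (-0.93 ± 0.11) and *BIRC3* (-0.46 ± 0.064) in the other. In siRFXANK cells 13 were higher and 7 lower (median 0.13), or 0.14 without the gene at the floor. There *BIRC3* (2.14 ± 0.063) and *PIDD1* (1.20 ± 0.087) led the rises, and *FAIM*, an inhibitor of FAS-mediated death, (-0.44 ± 0.13) and *TRAF2* (-0.35 ± 0.065) the falls. The background shares are those given above for the same comparisons.

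*BIRC3*, an inhibitor of apoptosis protein that acts as ubiquitin ligase at TNF receptor 1, had the widest spread of responses on this list among the genes named. Its log2 fold change with Nutlin-3a was 0.97 ± 0.063 in siControl cells, -0.46 ± 0.064 in siANKRA2 cells and 2.14 ± 0.063 in siRFXANK cells. The differences to siControl were -1.43 ± 0.090 for siANKRA2 (adjusted p = 5.7e-54) and 1.17 ± 0.090 for siRFXANK (adjusted p = 4.1e-35). Its relative *BIRC2* differed in the same directions at smaller size, by -0.56 ± 0.070 and 0.32 ± 0.071.

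For the difference of responses between siANKRA2 and siControl cells, 4 of the 32 genes were higher and 12 lower, with a median of -0.20 beside -0.02 over all tested genes, and of -0.17 without the gene at the floor. Of all tested genes, 11.4% were higher and 12.5% lower. Among the genes with a mean of at least 100, the largest falls were those of *BIRC3* and of the death receptor gene *TNFRSF25* (-0.86 ± 0.29, adjusted p = 0.016), and the largest rise that of the caspase gene *CASP6* (0.36 ± 0.10, adjusted p = 0.0037). For siRFXANK 6 were higher and 3 lower (median 0.002, or -0.001 without the gene at the floor), beside 11.6% and 9.64% of all tested genes. *MLKL*, the effector of necroptosis, was at 0.48 ± 0.15 after *BIRC3*, and *TRADD* (-0.52 ± 0.12) and *FAIM* (-0.45 ± 0.17) led the falls. Between siANKRA2 and siRFXANK cells 3 were higher and 12 lower (median -0.21, or -0.18 without the 2 genes at the floor), with *BIRC3* at -2.60 ± 0.091, *BIRC2* at -0.88 ± 0.070 and *CASP6* at 0.47 ± 0.11. The shares of all tested genes were 14.7% higher and 17.7% lower.

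**Figure D4:**
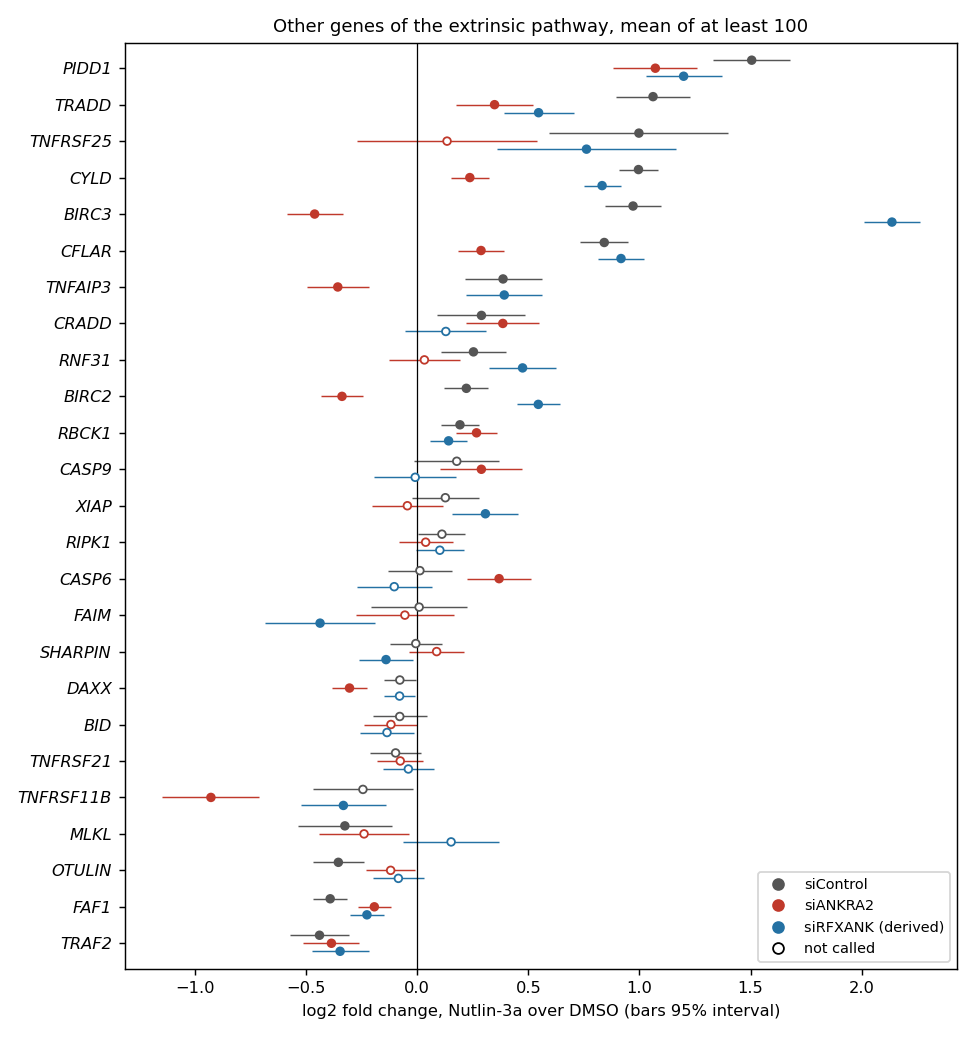
Response to Nutlin-3a (log2 fold change over DMSO, horizontal axis) of 25 other genes of the extrinsic pathway with a deposited mean of at least 100, ordered by the siControl value; bars are 95% intervals, and open circles mark values that were not called. *BIRC3* lies at -0.46 in siANKRA2 and 2.14 in siRFXANK cells, on both sides of its siControl value of 0.97.

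The same list was examined for knockdown over siControl, and the genes named are again from those with a deposited mean of at least 100. With siANKRA2 in DMSO 17 genes were higher and 8 lower (median 0.21), and in Nutlin-3a 16 were higher and 13 lower (median 0.07). Of all tested genes, 24.3% were higher and 24.5% lower in DMSO, and 24.6% and 25.5% in Nutlin-3a. *TNFAIP3*, the gene of the ubiquitin editing enzyme A20 that restrains TNF signalling, was higher by 2.17 ± 0.082 in DMSO and 1.43 ± 0.079 in Nutlin-3a. *CRADD* was higher by 1.09 ± 0.095 and 1.19 ± 0.090. *PIDD1* was lower, at -0.93 ± 0.097 and -1.36 ± 0.089. With siRFXANK, 20.9% of all tested genes were higher and 21.2% lower in DMSO, and 19.8% and 19.6% in Nutlin-3a. On the list 9 were higher and 7 lower with siRFXANK in DMSO (median 0.04), and 13 and 5 in Nutlin-3a (median 0.12). There *TNFRSF11B* led the rises (1.37 ± 0.10 and 1.28 ± 0.11), followed by *TRADD* in DMSO (0.60 ± 0.087) and *BIRC3* in Nutlin-3a (0.84 ± 0.061), and *CASP6* (-0.75 ± 0.079 and -0.87 ± 0.081) and *FAIM* (-0.51 ± 0.12 and -0.96 ± 0.12) the falls.

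The wider TNF superfamily was taken as 32 further ligand and receptor genes, some of which also stand on the list of the extrinsic pathway. Of 30 tested in siControl cells, 11 rose with Nutlin-3a and 6 fell (median 0.07), beside 21.9% and 21.2% of all tested genes. *TNFRSF14*, the receptor HVEM, rose by 3.46 ± 0.23 and *EDA2R*, a receptor for ectodysplasin, by 1.67 ± 0.064, and *TNFRSF8* (CD30) was at -1.52 ± 0.17 and *EDA* at -0.44 ± 0.11. Of all tested genes, 15.5% were higher and 17.0% lower in siANKRA2 cells, and 22.8% and 22.5% in siRFXANK cells. In siANKRA2 cells 6 of 26 superfamily genes were higher and 9 lower (median -0.10), and in siRFXANK cells 10 of 30 and 7 (median 0.03). *EDA2R* rose by 0.80 ± 0.062 and 1.60 ± 0.067 there, and *TNFRSF14* by 2.81 ± 0.25 and 2.49 ± 0.19. For the difference of responses between siANKRA2 and siControl cells 3 of 26 were higher and 10 lower (median -0.41), among them the ligand gene *CD70* (-1.09 ± 0.15, adjusted p = 4.2e-12) and *EDA2R* (-0.88 ± 0.089, adjusted p = 4.8e-21). Of all tested genes, 11.4% were higher and 12.5% lower. For siRFXANK 2 of 30 were higher and 5 lower (median -0.02), with *TNFRSF14* (-0.97 ± 0.29) and *CD70* (-0.62 ± 0.14) in front. The shares of all tested genes were 11.6% higher and 9.64% lower. Between siANKRA2 and siRFXANK cells 2 of 26 were higher and 8 lower (median -0.27), beside 14.7% and 17.7% of all tested genes.

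With siANKRA2 over siControl, 24.3% of all tested genes were higher and 24.5% lower in DMSO, and 24.6% and 25.5% in Nutlin-3a. Of 30 superfamily genes, 12 were higher and 3 lower in DMSO (median 0.37), and 9 and 8 in Nutlin-3a (median -0.04). Higher in both treatments were *TNFRSF8* (1.20 ± 0.13 in DMSO and 2.13 ± 0.16 in Nutlin-3a), *TNFRSF21*, the gene of the death receptor DR6 (0.998 ± 0.055 and 1.02 ± 0.056), and *RELT* (0.90 ± 0.076 and 1.03 ± 0.080). *LTBR*, the lymphotoxin receptor gene, was lower in both (-0.45 ± 0.043 and -0.88 ± 0.042). *EDA* was called lower in DMSO (-0.65 ± 0.11) and stood at -0.09 ± 0.11 in Nutlin-3a, whereas *CD70* (-0.97 ± 0.10) and *TNFRSF14* (-0.89 ± 0.15) were called lower in Nutlin-3a and stood at 0.12 ± 0.11 and -0.25 ± 0.30 in DMSO. With siRFXANK, 8 were higher and 6 lower in either treatment (medians 0.03 and 0.02), with *TNFRSF12A*, the receptor FN14, higher by 1.34 ± 0.054 and 0.93 ± 0.054 and *TNFRSF9* (4-1BB) at -1.15 ± 0.099 and -1.34 ± 0.10, called lower. The shares of all tested genes were 20.9% higher and 21.2% lower in DMSO, and 19.8% and 19.6% in Nutlin-3a. When genes at the floor were set to their bound or left out and the list was limited to genes in all 6 tables, the median moved most for siRFXANK in DMSO, to 0.098.

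Finally, the genes with the most similar profile over the 6 group means were sought among 13102 genes with a deposited mean of at least 100, by the root mean square distance of the centred log2 means. *TNFRSF10B* was closest to *FBXW7*, at a distance of 0.062. The responses of *FBXW7* to Nutlin-3a were 1.25 in siControl, 0.42 in siANKRA2 and 1.30 in siRFXANK cells on the log2 scale, beside 1.37, 0.41 and 1.40 for *TNFRSF10B*. *FAS* was closest to *ALS2CL* (0.13) and *TMEM63B* (0.14), *TNFRSF1A* to *ARHGAP1* (0.046), *CASP8* to *GNPDA1* (0.029) and *FADD* to *TRAPPC2L* (0.032). These distances describe 6 group means that were recovered together, and the small ones belong to genes with small changes.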

How the data were processed

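RNA-seq of polyadenylated RNA from 18 samples (6 groups of 3) was analysed from 6 deposited comparison tables. The submitters' processing notes name the build hg38 and the tools Trimmomatic 0.39, cutadapt 2.10, featureCounts 1.6.5 and DESeq2 1.20.0. The aligner, the annotation and the use of strand are not given in the sources used here. The deposited mean normalized count of a gene over the authors' fit was treated as a signal. The authors' fold changes and standard errors are on the log2 scale, and their Wald score is the ratio of both. The authors' p-value and its Benjamini-Hochberg adjusted form come from DESeq2. All these columns are the submitters' own comparisons, used because no values per library were given. Depth is unknown, and no count model was fitted.

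Computed here were 4 contrasts (the response in siRFXANK cells and 3 differences of responses), each as a sum of deposited log2 fold changes with its variance. For the response in siRFXANK cells, the variances of both siRFXANK tables were added and that of Nutlin-3a in siControl cells subtracted. A two-sided p came from the normal distribution, adjusted over all genes. The tables of siControl and siANKRA2 cells form a loop and closed to within 1.4e-14, as those of 1 joint fit do. Both siRFXANK tables are outside this loop. They were taken as part of the same fit, which was not tested. Group means and a dispersion were fitted to the 6 standard errors, with the variance of a log2 mean as (1/mean + dispersion)/(n ln2²), n = 3, means under 0.5 set to 0.5 and a floor of 3 normalized counts. The deposited mean divided by the mean of the recovered ones was 0.843 to 1.15 for 6 members, 0.487 for TNFRSF10D and 1.75 for TNFRSF1B. For ANKRA2 it was 153, although the recovered means met its squared standard errors to within 2.8%. Whether the deposited mean also covers samples outside the 6 groups was not tested. Recovered means and those scaled to the deposited mean are therefore approximate. Of 26702 gene IDs, 26659 were found in GENCODE 29. Simulated data were used to test the recovery of group means, the derived contrasts and their Wald test. Python 3.11.15, pandas 2.3.3 and scipy 1.17.1 were used.

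The members and lists were chosen with earlier results of these data known. Named list genes are the 2 largest called rises and falls per comparison with a mean of at least 100, most of which are given above (some are not reported here), and for each member the 2 most similar genes. Alternatives were a threshold of 0.01, adjustment over genes whose mean reached 10 or 100, a log2 fold change of at least 1, centring on the median, the other pair of tables, and scaling of group means.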

Additional observations from a re-analysis of the deposited data

Results flagged for a closer look

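The responses to Nutlin-3a of several members differed between the knockdowns by a test of the difference itself (Wald test on the deposited values, adjusted over all genes). With siANKRA2 minus siControl, the differences of log2 fold changes were -0.96 for *FAS*, -0.96 for *TNFRSF10B* and -0.37 for *TNFRSF1A*. With siRFXANK minus siControl, they were -0.40 for *FAS* and -0.24 for *TNFRSF1A*. With siANKRA2 minus siRFXANK, they were -0.57 for *FAS*, -0.99 for *TNFRSF10B* and 0.27 for *FADD*. The p53 targets *MDM2* and *CDKN1A*, which are no members, moved with these results: their differences were -1.19 ± 0.069 and -1.85 ± 0.055 for siANKRA2 minus siControl, and -0.33 ± 0.068 and -0.82 ± 0.056 for siRFXANK minus siControl. With siANKRA2 over siControl in DMSO, *CDKN1A* was higher by 2.04 ± 0.040, and *MDM2* stood at -0.11 ± 0.051 (adjusted p = 0.065). The part of the p53 response as a whole in the values of the members was not tested.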

How the results depend on the processing

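No paired analysis was possible because each table compares whole groups and gives nothing per sample. Leaving out each sample, another count model and a filter on raw counts were not run either. Where a log2 fold change of 1 or more in size was required, the number of members called fell to 3 for Nutlin-3a in siControl cells, 1 in siANKRA2 cells and 2 in siRFXANK cells, and to 2 for siANKRA2 in DMSO, 0 for siANKRA2 in Nutlin-3a, 1 for siRFXANK in DMSO and 0 for siRFXANK in Nutlin-3a. It was 0 for each of the 3 differences of responses. The 2 members left for siANKRA2 in DMSO (*TNFRSF10D* and *TNFRSF1B*), the 1 for siRFXANK in DMSO and 1 of the 3 for Nutlin-3a in siControl cells (*TNFRSF10D*) have a group under the floor, where the fitted fold change is no bound. Against the floor their folds were at least 1.34, 1.55, 1.27 and 1.28. At a threshold of 0.01, 3 members were called for siANKRA2 in DMSO and 2 for siRFXANK in Nutlin-3a, where *TNFRSF1A* lost its call in both and *CASP8* in the second, and the other 8 of 10 counts stayed within 1.5 times. The calls of *TNFRSF10D* and *TNFRSF1B* were lost at 0.01 and after adjustment over genes whose mean reached 10 or 100, which leaves them out. After adjustment over those that reached 100, *CASP8* gained a call for siANKRA2 minus siControl, and with either limit, *FADD* gained one (lower) for siANKRA2 in DMSO and *TNFRSF1A* one for siANKRA2 minus siRFXANK. Centring on the median (between -0.019 and 0.016) kept the direction and call of all 80 log2 fold changes. Scaling group means to the deposited mean moved 25 of 48 by more than the modelled SD. A group below the floor gives no fold change.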
